A study of Mus musculus with 10 samples.

Results

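The genes described here encode the solute carriers, the mouse genes whose symbol begins with Slc and a family number. They were taken from the platform annotation of an Affymetrix array, with 1 probe set per gene, the one of highest mean log2 intensity. A gene was kept when that probe set was above a log2 intensity of 6.5 on at least 2 of the 10 arrays. Of 347 Slc genes with a probe set of their own, 140 met this rule, and 104 of them were above the level on all 10 arrays. A further 204 Slc genes were above it on no array. At the edge of the rule, the second highest log2 value was 6.5006 for Slc25a17 and 6.51 for Slc25a25, both kept, and 6.4959 for Slc15a1 and 6.45 for Slc26a11, both left out. Of the 140 genes, 4 bear the name of another gene, a carrier, as its partner or neighbour (Slc9a3r1, Slc4a1ap, Slc7a6os and Slc2a4rg-ps). They are no carriers themselves, which leaves 136. Slc3a2, a heavy chain partner of carriers under a family number of its own, is kept among the 136.

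Solute carriers are membrane proteins that move small molecules across the plasma membrane and the membranes of lysosomes, mitochondria, the endoplasmic reticulum and the Golgi, as exchangers, ion-coupled transporters or facilitated pores. T cells depend on them for glucose, for large neutral amino acids, glutamine and methionine, for nucleosides, choline and folate, and for metals, and they raise many of them when they are activated. In lysosomes, amino acid carriers also help to set the activity of the growth regulator mTORC1.

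The cells were invariant natural killer T (iNKT) cells, lymphocytes whose nearly fixed antigen receptor sees lipids held by CD1d, sorted from thymi of 6-week-old C57BL/6 mice. The study compared wild-type (WT) mice with mice that lack Id3 (Id3KO), a protein that binds E protein transcription factors and keeps them from DNA, and the labels do not say whether all cells or 1 cell type carried the deletion. Stage 1 cells bound the CD1d tetramer (Tet) and were CD24-, CD44- and NK1.1-, and stage 2 cells were Tet+, CD24-, CD44+ and NK1.1-. There were 2 WT and 2 Id3KO arrays at stage 1 and 3 WT and 3 Id3KO arrays at stage 2, labelled as biological replicates. The labels do not say how many mice were pooled per array.

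Id3 itself had an intensity of 1289 and 1282 on the WT stage 1 arrays and of 1065, 831 and 818 on the WT stage 2 arrays. On the 5 Id3KO arrays it lay between 54.2 and 69.8, near the median of the whole table, 55.1. The labels do not say which exons were removed, nor if this probe set reads them. The summed intensity of 6 T and iNKT cell markers was 8606 to 10031 on all arrays. Of 8 markers of double-positive thymocytes (sum 528 to 639), 5 were at or under the table median on every array (Cd8b1, Rag1, Rag2, Ptcra and Dntt). The same held for 3 of 6 B cell markers, 3 of 8 myeloid and dendritic markers, 2 of 4 erythroid and 1 of 6 thymic epithelial markers. The sums of the B cell, erythroid and epithelial lists differed little between groups (285.5 to 331.8, 211 to 220.2 and 342 to 375), and that of the myeloid list was 436 to 472 in WT and Id3KO stage 1 and WT stage 2 cells and 473 to 577 in Id3KO stage 2 cells. A sum can hide a single marker. The B cell marker Cd79b read 5.90 to 6.39 (log2) in WT and 5.63 to 5.69 in Id3KO stage 2 cells. This difference did not pass (log2 -0.46, limma adjusted p = 0.0914), and the other B cell markers tested, Cd79a and Pax5, were at 0.04 and 0.01. RNA of the sort marker Cd44 read 7.20 to 7.81 (log2) in WT and 7.03 to 7.99 in Id3KO stage 1 cells. At stage 2 it read 9.35 to 9.74 in WT and 8.13 to 9.17 in Id3KO cells (log2 -0.82, limma adjusted p = 0.241). Cd24a, in the sort list and the double-positive list, read 5.48 and 6.69 on the 2 WT stage 1 arrays. It read 5.33 to 5.93 on the arrays of the other groups, so 1 WT stage 1 array stood above all others. Marker lists of iNKT subsets did differ. At stage 2 the sum of 6 NKT1 markers was 2760 to 2999 in WT and 883 to 1217 in Id3KO cells, and that of 5 NKT17 markers was 1881 to 2962 in WT and 419 to 858 in Id3KO cells. The sum of 5 NKT2 markers was 9274 to 10222 in WT and 6944 to 7967 in Id3KO cells at both stages. Of the markers tested at stage 2, 6 of 6 for NKT1 and 4 of 5 for NKT17 passed as lower (limma, adjusted p under 0.05), against 2.39% of all probe sets. The remaining NKT17 marker was also below 0 but did not pass. Il2rb, one of the 6 NKT1 markers (log2 -0.95, limma adjusted p = 0.0326), is in the T and iNKT list too. The sum of 3 NK markers, of which Ncr1 was at or under the median on every array, was 134 to 156 in WT and 292 to 882 in Id3KO cells. The part of these shifts in the results below was not tested.

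Sorted by the main substrate of the family whose name they bear, the 140 genes comprised 34 in the class of mitochondrial carriers, 21 in that of amino acids, 21 of metals, 19 of nucleotide sugars and acetyl-CoA, 13 of inorganic ions and protons, 12 of sugars, 11 of organic ions, peptides and lipids, and 3 each of monocarboxylates and dicarboxylates, of nucleosides and nucleobases, and of vitamins and choline. The classes follow family numbers and therefore hold exceptions. The 4 genes named after another gene stand in these classes too, Slc7a6os under amino acids, Slc2a4rg-ps under sugars, and Slc9a3r1 and Slc4a1ap under inorganic ions. Slc43a3, a purine nucleobase carrier, stands in the amino acid class, and Slc16a10, a carrier of aromatic amino acids, with the monocarboxylate carriers. Slc66a2, of the PQ-loop family, stands in the amino acid class by its family number alone. Per array, between 118 and 129 of the 140 genes were above the level, with 127 to 129 in WT stage 1, 118 to 128 in WT stage 2, 123 to 129 in Id3KO stage 1 and 124 to 127 in Id3KO stage 2 cells. The set of transporters read out was therefore of similar size in every group. Only in WT arrays did Slc12a4, Slc22a17, Slc25a25, Slc25a53 and Slc2a9 reach the level, and only in Id3KO arrays did Slc6a9, the glycine transporter. These 6 entered the set through the genotype in which they were brighter, so their direction supports nothing.

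At stage 2, in cells sorted as CD44+, 7 of the 140 genes passed the test (limma, adjusted p under 0.05 over 25061 probe sets). Of these, 5 were higher and 2 lower in Id3KO cells. The 7 are 5% of the genes, against 4.21% of all probe sets tested (1.82% higher and 2.39% lower). Of the 8376 genes that meet the same level rule 7.15% passed, so the share of transporters called was near the background. The median difference was -0.02 (log2) over the 140 genes and 0.01 over all probe sets. The changes were in single genes: the neutral amino acid carrier Slc43a2 and the nucleobase carrier Slc43a3 fell, while the lysosomal amino acid carrier Slc36a1, the glutamine carrier Slc38a2, the PQ-loop family gene Slc66a2, the chloride cotransporter Slc12a2 and the nucleotide sugar carrier Slc35b4 rose. Of these 7, 5 stand in the amino acid class, which makes 23.8% of its 21 genes. They include Slc43a3, and Slc66a2, which is placed there by its family number alone. As the arrays hold RNA of sorted populations, fewer cells of a type and less RNA per cell cannot be told apart in any value here.

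Slc43a2 encodes a facilitative carrier of leucine, methionine and other large neutral amino acids. Its intensity was 685, 684 and 758 on the WT stage 2 arrays and 467, 356 and 365 on the Id3KO stage 2 arrays. Each Id3KO array was below each WT array, and the means of 709 ± 42.3 and 396 ± 61.9 (SD, n = 3 each) gave a 1.80-fold lower level in Id3KO cells (log2 -0.85 ± 0.11, SE, limma adjusted p = 0.00498). At stage 1 it read 547 and 590.1 in WT and 419 and 383 in Id3KO cells, lower by the same sign but short of the test (log2 -0.50 ± 0.14, SE, limma adjusted p = 0.195). The stage 2 call held in all 21 alternative analyses, with adjusted p between 0.00275 and 0.0473. Its 2 dimmer probe sets were lower by less and did not pass (log2 -0.18 and -0.39 at stage 2, limma adjusted p = 0.675 and 0.415).

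Slc43a3, of the same family, encodes an equilibrative carrier of purine nucleobases. At stage 1 it read 177 and 180.3 on the WT arrays and 100.2 and 92.3 on the Id3KO arrays. At stage 2 it read 137, 147 and 118 in WT and 97.2, 95.3 and 99.4 in Id3KO cells. The 5 Id3KO arrays thus lay within 92.3 to 100.2 at both stages, below every WT array, while the WT level was higher at stage 1 than at stage 2. The difference was 1.86-fold at stage 1 (log2 -0.89 ± 0.11, SE, n = 2 against 2, limma adjusted p = 0.0129) and 1.37-fold at stage 2 (log2 -0.46 ± 0.09, SE, n = 3 against 3, limma adjusted p = 0.0273). The change of the difference between stages did not pass (log2 0.44 ± 0.14, SE, limma adjusted p = 0.658). With 2 to 3 arrays a group the call depends on each array: at stage 1 it was lost without any of the 4 stage 1 arrays (limma adjusted p = 0.0543 to 0.103) and at stage 2 without WT replicate 1 or 2 or any of the 3 Id3KO arrays (0.0572 to 0.0901), with the log2 difference between -0.95 and -0.83 and between -0.47 and -0.38.

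Slc36a1 encodes a proton-coupled carrier of small neutral amino acids that works at the lysosome. On the WT arrays it read 98.3 and 100.5 at stage 1 and 93.4, 96.3 and 95.1 at stage 2. On the Id3KO arrays it read 117 and 120.3 at stage 1 and 132, 131 and 165 at stage 2. WT cells held it within a narrow range and every Id3KO array was above it, highest at stage 2, where the difference was 1.495-fold (log2 0.58 ± 0.09, SE, limma adjusted p = 0.0119). That call held in all 21 alternatives (adjusted p from 0.0044 to 0.0493). At stage 1 the difference of 0.26 ± 0.12 (log2, SE) did not pass (limma adjusted p = 0.493). The probe set is the only one of the gene.

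Slc38a2 encodes a sodium-coupled carrier of glutamine, alanine and other small neutral amino acids, known to be induced when amino acids run short. It read 675, 623 and 607 on the WT stage 2 arrays and 865, 816.5 and 815 on the Id3KO stage 2 arrays, without overlap. The difference was 1.31-fold (log2 0.39 ± 0.07, SE, limma adjusted p = 0.0219). At stage 1 the arrays overlapped, at 698 and 757.5 in WT and 780 and 738 in Id3KO cells (log2 0.06 ± 0.09, SE, limma adjusted p = 0.895). Other probe sets of the gene did not show the stage 2 difference (log2 -0.01 and -0.04), and the mean over its probe sets was at 0.11 (limma adjusted p = 0.411). The call was also lost without WT replicate 2 or 3 or without Id3KO replicate 1 or 2 of stage 2 (adjusted p = 0.0550 to 0.0919).

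Slc66a2 belongs to the family of PQ-loop proteins. It read 95.2, 79.1 and 89.2 on the WT stage 2 arrays and 117, 114 and 123 on the Id3KO stage 2 arrays (log2 0.43 ± 0.09, SE, limma adjusted p = 0.0379). At stage 1 it read 101 and 86.0 in WT and 118 and 120.2 in Id3KO cells, so no Id3KO array reached down to a WT array at either stage. The probe set is of a type that can bind related transcripts. A second probe set was at 0.15 at stage 2 (limma adjusted p = 0.320), and the mean over probe sets at 0.14 (0.214). The call was lost without WT replicate 2 or 3 of stage 2 or without any of the 5 Id3KO arrays (0.0615 to 0.117).

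The promoters of the called genes were read for the letters CAGGTG, an E box that E proteins can bind, and TGATGNAA, an element that ATF4 can bind, on either strand over the 250 bases before each start in the RefSeq promoter table of build GRCm38.p6. Of the 7 called genes 4 are in the table, and of the 140 genes 109. The windows of Slc36a1 and Slc38a2, which rose, hold the E box, while those of Slc43a2, which fell, and of Slc35b4, which rose, do not. They are shown 5′ to 3′ to let this be seen, with the E box in capitals, and end at the base before the start. Slc36a1 is read from chr11:55204090-55204339 on the plus strand, Slc38a2 from chr15:96699729-96699978 on the minus strand, and Slc43a2 from the first of its 2 windows, chr11:75531444-75531693 on the plus strand.
Slc36a1: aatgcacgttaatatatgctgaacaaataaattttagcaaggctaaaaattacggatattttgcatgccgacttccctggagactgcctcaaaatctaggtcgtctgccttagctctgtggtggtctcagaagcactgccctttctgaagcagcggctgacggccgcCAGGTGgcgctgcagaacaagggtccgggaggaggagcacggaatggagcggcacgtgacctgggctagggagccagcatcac
Slc38a2: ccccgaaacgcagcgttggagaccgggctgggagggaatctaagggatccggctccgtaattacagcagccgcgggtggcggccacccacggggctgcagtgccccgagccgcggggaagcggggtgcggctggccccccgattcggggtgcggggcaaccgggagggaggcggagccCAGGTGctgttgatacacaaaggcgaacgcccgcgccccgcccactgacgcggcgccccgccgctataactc
Slc43a2: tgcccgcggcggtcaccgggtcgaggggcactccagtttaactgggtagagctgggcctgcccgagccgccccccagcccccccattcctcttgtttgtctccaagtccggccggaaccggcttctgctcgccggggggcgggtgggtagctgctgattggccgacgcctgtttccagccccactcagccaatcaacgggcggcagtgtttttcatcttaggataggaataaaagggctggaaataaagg
The E box begins 83 bases before the start in Slc36a1 and 72 bases before it in Slc38a2. Neither window of Slc43a2 nor that of Slc35b4 holds it, and TGATGNAA was in none of these windows. The E box is common: 17.2% of the 32851 windows of the table hold it, and 14.4% of the 146 windows of the transporter genes, while TGATGNAA was in 3.45% and 1.37%. A match describes the letters only.

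Outside the amino acid class, Slc12a2 and Slc35b4 rose at stage 2. Slc12a2 encodes the sodium-potassium-chloride cotransporter NKCC1, which loads cells with chloride and takes part in volume control. It read 85.4, 92.5 and 99.7 on the WT stage 2 arrays and 135, 127 and 166 on the Id3KO stage 2 arrays, a 1.54-fold difference without overlap (log2 0.62 ± 0.12, SE, limma adjusted p = 0.0223). At stage 1 the values of 124 and 106 in WT and 128 and 119 in Id3KO cells overlapped. A second probe set of Slc12a2 was higher by 0.48 at stage 2 (limma adjusted p = 0.0861) and another by 0.09. The call was lost without WT replicate 1 or 2 of stage 2 (0.0679 and 0.0734).

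Slc35b4 encodes a carrier of UDP-xylose and UDP-N-acetylglucosamine of the Golgi and endoplasmic reticulum. It read 118 and 115 in WT stage 1, 121 and 124 in Id3KO stage 1, and 125.0, 113 and 129 in Id3KO stage 2 cells. On the WT stage 2 arrays it read 75.6, 86.9 and 95.8. WT stage 2 cells were thus the group that stood apart, lower than the other groups, with a 1.43-fold difference between genotypes at stage 2 (log2 0.51 ± 0.10, SE, limma adjusted p = 0.0229). The stage difference within WT cells did not pass (log2 -0.44 ± 0.11, SE, limma adjusted p = 0.306). Its 2 other probe sets were at -0.01 and 0.12, the mean over probe sets at 0.21 (limma adjusted p = 0.194), and the call was lost without WT replicate 2 or Id3KO replicate 1 or 3 of stage 2 (0.0647 to 0.0711).

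Slc2a1, the glucose transporter GLUT1, was close to the threshold at stage 2. It read 254, 313 and 252 on the WT stage 2 arrays and 401, 429 and 337 on the Id3KO stage 2 arrays. The arrays did not overlap, yet the difference missed the test (log2 0.51 ± 0.12, SE, limma adjusted p = 0.0512). It passed in 7 of 21 alternatives, among them without WT replicate 2 (0.0435) or Id3KO replicate 3 (0.0315) of stage 2. Its other probe sets were at 0.39 and 0.14. Slc2a3, the glucose transporter GLUT3, was at 0.04 ± 0.12 (log2, SE).

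**Figure D1:**
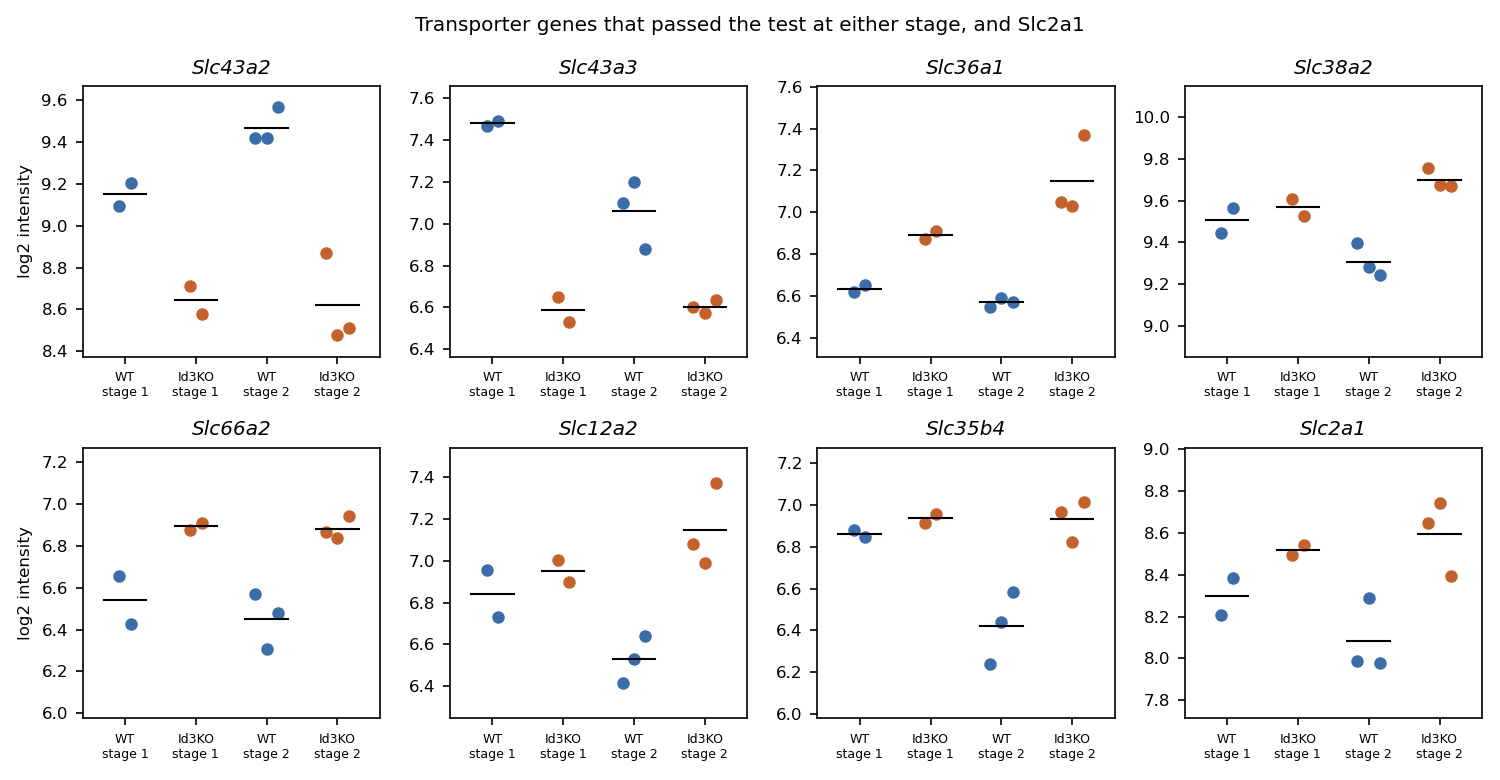
Log2 intensity of the 7 transporter genes that passed the test at either stage, and of Slc2a1, on each array (points; blue WT, orange Id3KO) with the group mean (line); the y axes differ between panels and do not start at 0. The Slc43a2 and Slc43a3 points of Id3KO cells lie below all WT points at both stages, and the other genes stand higher in Id3KO than in WT cells at stage 2.

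Over the stage 2 comparison as a whole, the arrays of both genotypes did not overlap for 34 of the 140 genes, 24.3%, against 21.4% of all probe sets. The 95% interval of the difference lay within 2-fold in either direction for 137 of 140 genes, so a larger change was outside the interval for most of them. Fitted on the stage 2 arrays alone, Slc43a2 and Slc36a1 were the 2 genes that passed. With an intensity trend and robust prior Slc66a2 was lost (adjusted p = 0.0580). The count of 7 calls fell to 3 without WT replicate 2 and to 4 without Id3KO replicate 2 of stage 2. It was also 4, of which Slc43a2 and Slc36a1 were among the 7, without the 2 Id3KO arrays on which Slc15a2, described further on, was very low.

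At stage 1, in cells sorted as CD44-, the same comparison called 1 of 140 genes (0.714%), Slc43a3, which fell. The share was 0.802% of all probe sets (0.343% lower) and 1.44% of the genes at the same level. The median was 0.02 (log2) over the 140 genes and -0.01 over all probe sets. The arrays did not overlap for 70 genes (50%), against 41.5% of all probe sets, with only 2 arrays on either side. The genes with the smallest p after Slc43a3 missed the test. Slc25a24, a mitochondrial carrier that exchanges ATP-Mg for phosphate, read 229.6 and 237 in WT and 138 and 129 in Id3KO stage 1 cells (log2 -0.81 ± 0.16, SE, limma adjusted p = 0.0672). Slc44a2, a choline transporter-like protein, read 1161 and 1068 in WT and 1697 and 1628 in Id3KO cells (0.58 ± 0.11, adjusted p = 0.0710). Both sets of arrays were far apart, yet neither gene passed with 2 arrays a group. The count of 1 became 0 without any of the 4 stage 1 arrays, and 2 without WT replicate 1 of stage 2, where Slc25a24 passed (0.0358), or Id3KO replicate 2 of stage 2, where Slc44a2 did (0.0405). Stage 2 arrays enter here through the shared estimate of the spread. For 136 of 140 genes the 95% interval lay within 2-fold.

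The genotype differences of the 2 stages come from separate arrays, but the labels do not say if these came from separate mice. Shared mice would make the stages less independent than the values below assume. For 90 of the 140 genes they had the same sign, and across the genes Pearson's r was 0.58 and Spearman's rho 0.44, given as a description, since genes are not independent replicates and the 4 groups share a normalization. The extremes at both stages were Slc15a2 (log2 -1.07 and -1.04) and Slc29a1 (1.32 and 1.03), which weigh most on Pearson's r. The Slc15a2 values rest on 1 low Id3KO array of each stage, as described further on. Neither the sign count nor the correlations are given here for all genes, so they show nothing particular to transporters. Because so few arrays stand behind each stage, the genotype difference was also averaged over both stages, a comparison added after the data were seen. It called 8 of 140 genes, 4 higher and 4 lower (5.71%, against 4.97% of all probe sets, 2.18% higher and 2.79% lower, and 8.51% of the genes at the same level). Pooled over stages, the arrays of both genotypes did not overlap for 12 genes (8.57%, against 6.85% of all probe sets). Of the 8, Slc43a2, Slc43a3, Slc36a1 and Slc66a2 had also been called at a stage, and Slc44a2, Slc44a1, Slc25a24 and Slc29a1 were called here alone.

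**Figure D2:**
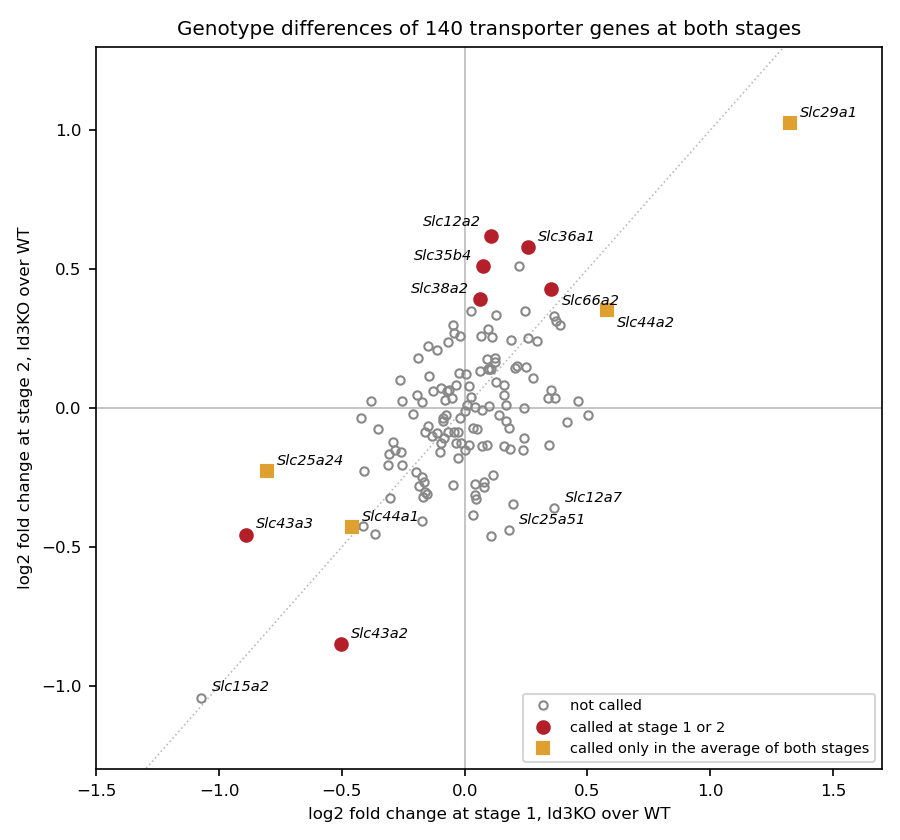
Log2 fold change of Id3KO over WT at stage 1 (x axis) and stage 2 (y axis) for each of the 140 transporter genes, with red circles for genes called at a stage, orange squares for those called only in the average, and open circles for the rest; the dotted line marks equal differences. Slc43a2, Slc43a3, Slc44a1 and Slc25a24 lie below 0 at both stages, Slc29a1, Slc44a2, Slc36a1 and Slc66a2 above 0 at both.

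Among the genes called only in the average, the pair of choline transporter-like genes went in opposite directions. Slc44a2 rose 1.38-fold in Id3KO cells (log2 0.46 ± 0.07, SE, limma adjusted p = 0.00815) and stood at 1161, 1111 and 1254 on the WT stage 2 arrays against 1440.4, 1688 and 1382 on the Id3KO ones. Slc44a1, the better known choline carrier, fell 1.36-fold (-0.44 ± 0.10, adjusted p = 0.0333). It read 328 and 305 in WT stage 1, 220.3, 211 and 290.4 in WT stage 2, 232 and 228 in Id3KO stage 1 and 172, 191 and 168 in Id3KO stage 2 cells. It was thus lower in Id3KO than in WT cells at either stage. Slc19a1, the reduced folate carrier and the remaining gene of the class, did not pass (log2 0.18, limma adjusted p = 0.136). The Slc44a2 probe set is of a type that can bind related transcripts, and its other probe sets were at 0.37 (limma adjusted p = 0.0127) and 0.10 (0.621).

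Slc29a1, the equilibrative nucleoside transporter ENT1, had the largest rise of the 140 genes, 2.26-fold in the average (log2 1.18 ± 0.24, SE, limma adjusted p = 0.0246). It read 90.7 and 119 in WT stage 1, 121, 78.0 and 104 in WT stage 2, 313 and 215 in Id3KO stage 1, and 133, 305 and 205 in Id3KO stage 2 cells. Every Id3KO array was above every WT array, but the Id3KO arrays were spread from 133 to 313, and neither stage alone passed (log2 1.32, limma adjusted p = 0.202, and 1.03, 0.107). Slc29a3, an intracellular nucleoside carrier, was at -0.16 and -0.30 at the 2 stages. Slc25a24 fell 1.43-fold in the average (-0.52 ± 0.10, limma adjusted p = 0.0218), with values of 187, 245 and 244 in WT and 166, 198 and 213 in Id3KO stage 2 cells that overlap.

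Slc43a2, Slc43a3 and Slc44a2 passed in all 20 alternatives of the average. Slc44a1 passed in 10, Slc29a1 in 12, Slc25a24 in 13, Slc66a2 in 15 and Slc36a1 in 16. Over these alternatives the log2 difference ranged from -0.49 to -0.13 for Slc44a1 and from -0.58 to -0.29 for Slc25a24. For Slc29a1 it ranged from 1.03 to 1.33 and for Slc66a2 from 0.10 to 0.45. Slc44a1, Slc29a1 and Slc66a2 were also lost in some alternatives that left out no array. Slc29a1 was lost without WT replicate 1 or 2 or Id3KO replicate 1 of stage 1, or WT replicate 2 or 3 of stage 2 (limma adjusted p = 0.0563 to 0.107). Slc44a1 was lost without any stage 1 array or Id3KO replicate 1 or 3 of stage 2 (0.0633 to 0.128), and Slc25a24 without any stage 1 array or WT replicate 2 or 3 of stage 2 (0.0542 to 0.0864). Slc36a1 was lost without any stage 1 array (0.0515 to 0.0632), and Slc66a2 without WT replicate 2 or either Id3KO array of stage 1 (0.0613 to 0.0755). The count of 8 fell to 4 when either WT array or the second Id3KO array of stage 1 was left out, and to 3 without the first Id3KO array of stage 1. Each of these removals leaves a single array in a group, which is then taken to vary like the other groups.

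The amino acid class had 1 call of 21 at stage 1, 5 at stage 2 and 4 in the average, beside 1.44%, 7.15% and 8.51% of all genes at the same level. Of those 8376 genes 1174, 2067 and 2005 had an unadjusted p under 0.05 (limma), the background for such counts in the classes below. Without Slc43a3, a nucleobase carrier, and Slc7a6os, no carrier, 19 genes remain. They had 0 calls at stage 1 (limma, 4 at an unadjusted p under 0.05), 4 at stage 2 and 3 in the average. Slc66a2, in the class by its family number alone, is among the 4 and the 3. The median differences of the class were 0.06, 0.07 and 0.06 (log2). Without Slc7a6os and without Slc6a9, which reached the level on Id3KO arrays alone, they were -0.02, 0.07 and 0.05. Carriers that supply activated T cells were among those that did not pass. Slc7a5, the light chain of the leucine exchanger LAT1, read 433, 367 and 315 in WT and 561, 434 and 409 in Id3KO stage 2 cells (log2 0.33 ± 0.15, SE, limma adjusted p = 0.329). Its heavy chain partner Slc3a2 was at 0.14 ± 0.08 (adjusted p = 0.458) and Slc1a5, a glutamine carrier, at 0.07 ± 0.14 (0.887). The arrays of all 3 genes overlapped between genotypes at stage 2. At stage 1 the Id3KO arrays were above the WT arrays for all 3, which held for either direction in 41.5% of all probe sets. Those differences were 0.37 for Slc7a5, 0.10 for Slc3a2 and 0.35 for Slc1a5 and did not pass (limma adjusted p = 0.568, 0.827 and 0.524). At stage 2 Slc6a9 was at 0.35 ± 0.09 (log2, SE, limma adjusted p = 0.0772), a direction that supports nothing because of how it entered the set.

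The 34 genes of the mitochondrial class had 0 calls at either stage (limma, 3 and 4 at an unadjusted p under 0.05) and 1, Slc25a24, in the average, with medians of 0.01, -0.01 and -0.02. The nearest at stage 2 was Slc25a28, a mitochondrial iron importer, at 271, 306 and 287 in WT and 212, 193 and 249 in Id3KO cells (log2 -0.41 ± 0.10, SE, limma adjusted p = 0.0611). The adenine nucleotide carriers Slc25a4 and Slc25a5 were at 0.02 and 0.09, and the phosphate carrier Slc25a3 at 0.00. The 21 metal carriers had 0 calls in these comparisons (1, 3 and 3 at an unadjusted p under 0.05), with medians of -0.05, -0.08 and -0.08. Of them 13 were below 0 at stage 1 and 14 at stage 2, or 12 with the members' median set to 0 on each array. Of the 8376 genes at the same level 4707 were below 0 at stage 1 and 4228 at stage 2.

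Of the 12 genes of the sugar class 0 passed (limma, 2 at an unadjusted p under 0.05 at each stage), while 10 of 12 were above 0 at stage 1 (median 0.14) and 7 of 12 at stage 2 (0.03). Without Slc2a4rg-ps, no carrier and at 0.50 the highest of the class at stage 1, 9 of 11 were above 0 there (median 0.13). The stage 1 count was 10 under each of 3 other scalings. Of the 8376 genes at the same level 3669 were above 0 at stage 1 and 4148 at stage 2. The 11 carriers of organic ions, peptides and lipids also had 0 calls (0 at an unadjusted p under 0.05), with a median of -0.09 at stage 2. Without Slc22a17, which reached the level on WT arrays alone, 8 of 10 were below 0 at stage 2, beside 4228 of the 8376 genes. The 13 genes of the class of inorganic ions and protons had 1 call, Slc12a2 at stage 2, and the 19 carriers of nucleotide sugars and acetyl-CoA 1, Slc35b4. The 3 monocarboxylate and dicarboxylate carriers had 0 (0 at stage 1 and 1 at stage 2 at an unadjusted p under 0.05), with Slc16a1, the lactate carrier MCT1, at -0.07 and 0.24. Of the class medians at stage 2 those of at least 10 genes lay between -0.13 and 0.07.

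**Figure D3:**
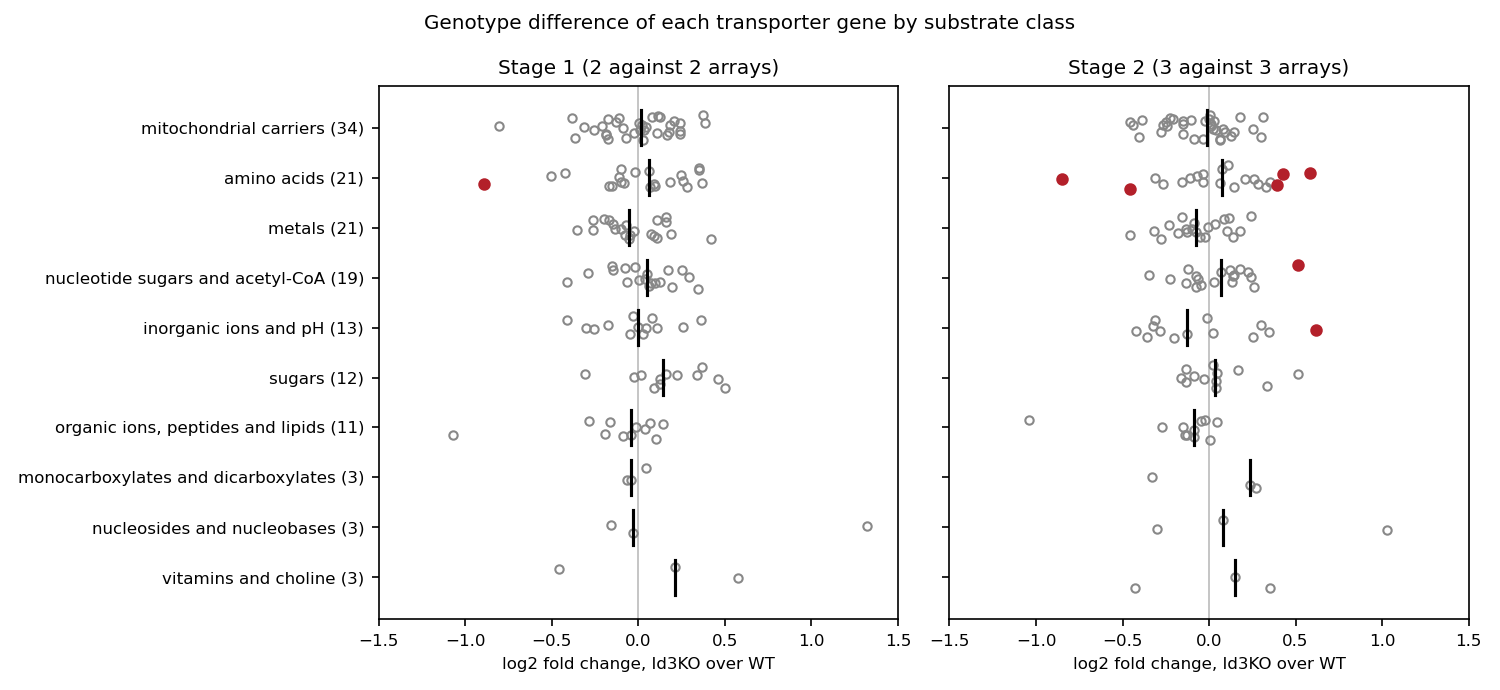
Log2 fold change of Id3KO over WT for each transporter gene, by substrate class with the number of genes in brackets, at stage 1 (left) and stage 2 (right). Red circles are genes that passed the test, open circles those that did not, bars the class medians, and the vertical scatter within a class carries no value. The red circles are 1 gene at stage 1 and 7 at stage 2, of which 5 are in the amino acid class.

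Between stages, no transporter gene passed in either genotype. In WT cells 0 of 140 were called, against 0.016% of all probe sets, with 15 at an unadjusted p under 0.05 (limma). Such a p was found for 2019 of all 25061 probe sets and 819 of the 8376 genes at the same level. In Id3KO cells 0 were called, against 0%, with 11 at an unadjusted p under 0.05 (limma). There it was 1131 of the 25061 probe sets and 539 of the 8376 genes. The arrays did not overlap between stages for 39 genes in WT (27.9%, against 26.2% of all probe sets) and for 28 in Id3KO cells (20%, against 18.4%). The largest fall from stage 1 to stage 2 in WT cells was in Slc16a1, from 331 and 371 to 246, 248 and 211 (log2 -0.58 ± 0.17, SE, limma adjusted p = 0.459). The largest rise in Id3KO cells was in Slc25a24, from 138 and 129 to 166, 198 and 213 (0.52 ± 0.14, adjusted p = 1.00), to be set against -0.06 in WT cells. Of the 34 mitochondrial carriers 29 were lower at stage 2 than at stage 1 in Id3KO cells (median -0.07, and 0.00 over all probe sets). So were 94 of all 140 transporter genes (median -0.05) and 4581 of the 8376 genes at the same level. In WT cells 20 of 34 were lower (median -0.02). A further quantile normalization left 27 of 34 lower in Id3KO cells and centring on the array medians 30 of 34. With the members' median set to 0 on each array it was 27 of 34. No gene of this class passed.

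The test of whether the genotype difference changed with stage called 0 of 140 genes, against 0% of all probe sets. An unadjusted p under 0.05 (limma) was found for 12 of the 140. It was found for 1772 of the 25061 probe sets and 752 of the 8376 genes at the same level. Among the 140 genes, the smallest p was that of Slc12a7, the potassium-chloride cotransporter KCC4. It read 292 and 317 in WT and 390.5 and 393 in Id3KO cells at stage 1, and 382, 341 and 423 in WT and 296, 332 and 265 in Id3KO cells at stage 2. Id3KO arrays were above WT arrays at stage 1 and below them at stage 2, without overlap at either, and the change of -0.73 ± 0.17 (log2, SE) did not pass (limma adjusted p = 0.532). A second, dimmer probe set of the gene did not switch, at 0.23 at stage 1 and 0.16 at stage 2, and the mean of both gave a change of -0.40.

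Slc15a2, which encodes the oligopeptide transporter PEPT2, had the widest spread of the 140 genes within groups. Its SD within groups was 1.34 (log2), against a median of 0.16. It read 225.0 and 367 in WT stage 1, 268, 477 and 257 in WT stage 2, 45.6 and 409.9 in Id3KO stage 1, and 341, 249.8 and 44.1 in Id3KO stage 2 cells. On 8 arrays the gene lay between 225.0 and 477. On Id3KO replicate 1 of stage 1 and Id3KO replicate 3 of stage 2 it was below the table median. The mean differences of -1.07 and -1.04 (log2) did not pass (limma adjusted p = 0.830 and 0.659) and turn on these arrays: without the low one the difference was 0.51 at stage 1 (adjusted p = 0.999) and -0.13 at stage 2 (0.969). Its 2 other probe sets read 44.03 to 49.4 and 54.97 to 65.1 on all arrays, close to the table median, so the swing rests on 1 probe set.

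**Figure D4:**
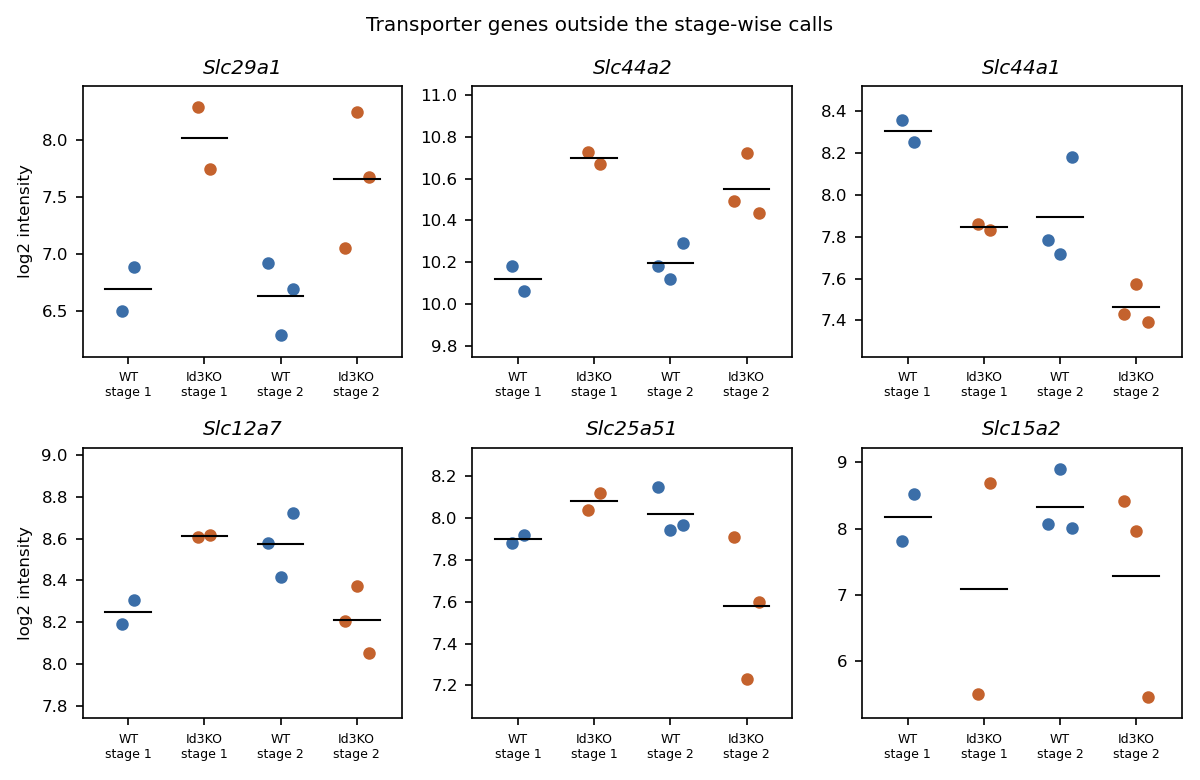
Log2 intensity on each array (points; blue WT, orange Id3KO) with the group mean (line) for 6 transporter genes that passed at neither stage; the y axes differ between panels and do not start at 0. Slc29a1 and Slc44a2 are higher and Slc44a1 is lower in Id3KO cells within each stage, Slc12a7 and Slc25a51 change sides between stages, and Slc15a2 is low on 1 Id3KO array of each stage.

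Partners of transporters and genes of amino acid supply were read beside the carriers. Of 16 such genes tested, 0 passed at stage 1 (limma, 3 at an unadjusted p under 0.05) and 2 at stage 2. Emb, embigin, a chaperone of lactate carriers, fell (log2 -0.62 ± 0.13, SE, limma adjusted p = 0.0370). Rragd, a GTPase that ties lysosomal amino acids to mTORC1, rose (0.92 ± 0.19, adjusted p = 0.0353) from WT stage 2 log2 levels of 5.52 to 5.87, around the table median of 5.78, so its size is against background. Of 20 genes of the ATF4 response to amino acid shortage, 1 passed at each stage, Asns, asparagine synthetase, which was higher by 1.84 ± 0.30 at stage 1 (log2, SE, limma adjusted p = 0.0343) and by 2.30 ± 0.25 at stage 2 (0.00187). WT levels of Asns were 5.54 to 6.43 (log2), near the table median, and its probe set is of a type that can bind related transcripts. The other 19 did not pass, and the median of the 20 was 0.09 at stage 1 and 0.17 at stage 2. Of 8 Slc genes with known ATF4 dependence, 1, Slc38a2, passed at stage 2 and 0 at stage 1 (0 at an unadjusted p under 0.05). Of 20 Abc genes, the other large family of membrane transporters, at the same level, 3 passed at stage 1 and 4 at stage 2. The background for the counts of this paragraph is the share of all probe sets called, 0.802% at stage 1 and 4.21% at stage 2, or 1.44% and 7.15% of the genes at the membership level. With 8 to 20 genes a list, a single call is 5% or more of it.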

How the data were processed

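RNA of sorted thymic iNKT cells was amplified by 2-cycle labelling, per the labels, and hybridised to 10 arrays. The deposited table holds linear intensities, 1 per probe set and array, made by the authors with RMA (version not given in the sources used here), per the submitters' processing notes. They ran from 29 to 15399. The plan had allowed for log2 values, and log2 of the intensities was taken here. Arrays give no counts, so their number limits the precision.

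Of 45037 probe sets, 25061 with a log2 above the table median (5.78) on at least 2 arrays were tested. A linear model with a mean for each of the 4 groups was fitted in limma 3.58.1 under R 4.3.3 (6 residual and 2.80 prior degrees of freedom), with two-sided moderated tests and Benjamini-Hochberg adjustment over all 25061 probe sets per contrast. A call is an adjusted p under 0.05. The pipeline was tested on simulated data. P-values measure the spread between arrays labelled as biological replicates.

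Symbols came from the platform annotation, and all 140 matched RefSeq by gene ID. Of 45037 probe sets 34945 had 1 gene symbol, 932 several and 9160 none. Any called gene could be named, as could examples of a class. Slc15a2, Slc12a7, Slc25a51, Slc2a1 and other genes near the threshold were picked for mention from their values. The members, classes and lists were chosen with earlier results of these data known, and class counts without single genes were added after the data were seen. Alternatives were other filters, a further quantile normalization, array weights, a replicate block, a fit to the compared arrays alone, an intensity trend with robust prior, 1 probe set or the mean of probe sets per gene, and each array left out.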

Additional observations from a re-analysis of the deposited data

Results flagged for a closer look

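For Slc12a7 and Slc25a51 every Id3KO array was above every WT array at stage 1 and below every WT array at stage 2. Each genotype also moved the opposite way between stages. The genotype difference at stage 2 minus that at stage 1, which is also the stage difference in Id3KO minus that in WT, was -0.73 (log2) for Slc12a7 and -0.62 for Slc25a51. Slc25a51, the mitochondrial NAD carrier, read 236 and 242 in WT and 263 and 278 in Id3KO stage 1 cells, and 284, 246 and 250.2 in WT and 240.4, 150.3 and 194 in Id3KO stage 2 cells. The interaction did not pass for either (limma adjusted p = 0.532 and 0.692). Other probe sets did not show the switch: 1 of Slc12a7 was at 0.23 and 0.16 at the 2 stages, and 2 of Slc25a51 at 0.05 and 0.13 and at -0.16 and -0.02. With the mean of probe sets the interaction was -0.40 for Slc12a7 and -0.14 for Slc25a51.

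For 3 other genes the stages moved in opposite directions in WT and Id3KO cells, with no overlap between stages in either genotype. The stage difference in Id3KO minus that in WT was 0.28 (log2) for Slc25a4, an adenine nucleotide carrier of mitochondria, 0.32 for Slc36a1 and 0.33 for Slc38a2. Tested as the interaction, none of them passed (limma adjusted p = 0.687, 0.718 and 0.675). Other probe sets of Slc25a4 gave -0.01 and 0.12 and those of Slc38a2 -0.40 and 0.19, and the mean of probe sets of Slc38a2 gave 0.04. Slc36a1 has a single probe set.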

How the results depend on the processing

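The 1 call at stage 1 became 2 with an intensity trend and robust prior, 2 with array weights, 3 with 1 probe set per gene, 3 with the mean of probe sets and 0 with only the compared arrays, and ranged from 0 to 2 with each array left out. The 7 calls at stage 2 became 2 with only the compared arrays and 9 with 1 probe set per gene, and ranged from 3 to 7 with each array left out. The 8 calls of the average became 14 with 1 probe set per gene, 14 with array weights and ranged from 3 to 10. Without both Id3KO arrays on which Slc15a2 was lowest, a choice made after seeing the data, the counts were 0, 4 and 4. The stage 1 difference of Slc15a2 reversed to 0.51 (log2) there and without Id3KO stage 1 replicate 1, and ranged from -2.66 to 0.51 with each array left out. The counts of 0 between stages and for the interaction were 0 in every alternative run. A level of log2 6 or 7 in the rule gave 191 or 102 genes.

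Replicate numbers were not taken to pair the arrays. Between genotypes, the deviations of same-numbered arrays correlated at -0.135 at stage 1 and at -0.025, -0.022 and 0.133 at stage 2. Between stages they correlated at 0.053 and 0.12 in WT and at -0.19 and -0.037 in Id3KO cells. In a group of 2 arrays the deviations mirror each other, so these values cannot tell whether arrays share mice. With the replicate number as a block the counts were 1, 5 (4 of them among the 7) and 10, and with crossed numbers at stage 1 for Id3KO, also added later, 2, 8 and 10. Of 702 comparisons of a value with its alternative, 581 gave the same call or a similar count and 2 reversed in sign. The rest gained or lost a call or, for counts, which cannot reverse, moved further.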

Other observations

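The pattern of Slc15a2, very low on Id3KO replicate 1 of stage 1 and Id3KO replicate 3 of stage 2, recurs in a few other probe sets, picked after their values were seen by a correlation beyond 0.9 in size over the 10 arrays and an SD over 0.3 (log2). Akr1c13, an aldo-keto reductase (r = 0.94), read 141 and 162 on those arrays and 330.4 to 586 on the other 8. Ide, the insulin-degrading enzyme (r = 0.92), read 598 and 529 there and 821 to 1030.2 elsewhere. Trim24, a transcriptional cofactor (r = -0.96), went the other way, with 88.1 and 96.1 against 47.7 to 53.95, and so did 4930526I15Rik (r = -0.90), with 309.6 and 433 against 185 to 238. These values are a description of 10 arrays with no test, and the labels do not set these arrays apart.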
